A study of Mus musculus with 6 samples.

Results

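Inflammasome and gasdermin genes were followed across the cell classes of the small intestinal epithelium and its myeloid cells. The 9 genes were taken by symbol and not by a limit on measured values, but earlier results of these data were known when they were chosen. They are the sensor Nlrp6, the adaptor Pycard, the protease Casp1, the cytokine Il18, the pore protein Gsdmd, and the gene cluster Gsdmc, Gsdmc2, Gsdmc3 and Gsdmc4. They are 9 of 32285 features in the count tables, of which 23671 had at least 1 UMI (unique molecular identifier, 1 per captured RNA molecule). Single cells had been sequenced as 6 droplet libraries with 1 mouse each, 3 from control littermates and 3 from IE-HuR-/- mice, aged 6 to 8 weeks on a C57BL/6 background. IE-HuR-/- mice were bred from HuR fl/fl mice and villin-Cre mice, and villin-Cre is active in intestinal epithelial cells but not in leukocytes. The littermates were HuR fl/fl without Cre, which the labels call wild-type. Villus-rich and crypt-rich epithelial fractions were freed by chelation and enzyme digestion and joined before loading.

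An inflammasome is a protein platform that forms inside a cell once a sensor such as NLRP6 meets a microbial or stress signal. The adaptor ASC, made from Pycard, links the sensor to caspase-1, which cuts pro-interleukin-18 and gasdermin D. Cut gasdermins open pores in the plasma membrane, through which interleukin-18 leaves the cell and by which the cell can die or, in goblet cells, release mucus. Gasdermin C proteins are cut by other caspases, and in the mouse intestine their genes are known to respond to type 2 cytokines.

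Cells were classed by marker genes, none of which is one of the 9, and UMIs were summed per library and class. The summed level is given as CPM, the UMIs of a gene scaled to a fixed total of the class. The 6 libraries held 8613 to 15041 barcodes and 59518012 to 91818560 UMIs each, and 27516 of 60706 barcodes passed a class gate. The 4 classes tested were 17380 enterocytes, 947 goblet cells, 118 crypt progenitors (stem and dividing cells) and 232 myeloid cells, with 13 to 28 crypt progenitors and 15 to 63 myeloid cells per library. The markers of each class were high in it, with 3053 to 4592 CPM of crypt progenitor markers in crypt progenitors against 9.74 to 13.1 CPM in enterocytes, and 12860 to 26590 CPM of myeloid markers in myeloid cells against 9.1 to 14 CPM. Markers of other classes were present as well, up to 8518 CPM of enterocyte and 11730 CPM of goblet markers in crypt progenitors and up to 27780 CPM of enterocyte markers in myeloid cells. Flow cytometry in the study had checked purity for EPCAM, an epithelial surface protein, and for absence of CD45 and CD90. Yet 6654 T or NK cells and 1285 erythroid cells also passed gates. RNA of enterocyte markers was present in every class. The sum of 13 enterocyte markers had a median over libraries of 48.9% of its enterocyte level in goblet cells, 11.3% in T or NK cells, 6.66% in myeloid cells and 4.65% in crypt progenitors. Pairs of libraries shared 22 to 44 barcodes, at most 0.44% of the smaller library.

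Elavl1, which encodes HuR, was not lower under the IE-HuR-/- label. In enterocytes it was 28.3, 30.1 and 27.8 CPM in control replicates 1, 2 and 3 and 29.3, 29.7 and 29.9 CPM in the libraries labelled IE-HuR-/-. The groups overlapped in CPM, and after scaling the contrast was a log2 fold change of 0.23 (SE 0.0486, adjusted p = 1.46e-04, from the quasi-likelihood test of edgeR, adjusted by Benjamini-Hochberg over all genes tested, as in every adjusted p that follows). The count tables do not show whether these UMIs came from RNA with the deleted part, so the labels could not be checked by RNA level. For protein, the study reports by immunostaining that HuR was almost absent from small intestinal epithelial cells of IE-HuR-/- mice. The groups are written below as the libraries are labelled.

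Pycard, Nlrp6, Casp1 and Il18 were high in lower-villus enterocytes and low in upper-villus enterocytes, while Gsdmd stayed high along the whole villus. To place enterocytes along the villus, the cells of each library were ranked by the share of their UMIs from 9 villus tip genes, none of them a member, and the upper and lower of 3 equal sets were compared within libraries. The rank stands for position and was not measured in tissue. Of the 6 members tested, 5 fell and 1 rose, where 77.4% of all genes tested were called. Gsdmc4, among the 5 that fell, had 4 UMIs in upper-villus and 76 in lower-villus cells. It passed the low-count filter through lower-villus cells only, so that its direction was not free. The median log2 fold change of -3.37 for the members, against -0.0823 over all genes tested, includes it. The promoters of the 4 genes that fell together are shown, as RefSeq gives them on GRCm38.p6 from 250 bases before to 50 bases after the start site, 5′ to 3′ on the strand of the gene.
Nlrp6 (chr7:140920652-140920951, plus strand): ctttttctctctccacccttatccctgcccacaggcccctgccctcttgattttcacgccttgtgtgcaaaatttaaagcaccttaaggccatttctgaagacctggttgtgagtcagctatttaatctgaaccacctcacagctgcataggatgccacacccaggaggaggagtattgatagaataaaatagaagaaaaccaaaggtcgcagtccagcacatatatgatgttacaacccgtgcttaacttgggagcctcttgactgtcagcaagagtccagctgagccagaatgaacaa
Pycard (chr7:127993818-127994117, minus strand): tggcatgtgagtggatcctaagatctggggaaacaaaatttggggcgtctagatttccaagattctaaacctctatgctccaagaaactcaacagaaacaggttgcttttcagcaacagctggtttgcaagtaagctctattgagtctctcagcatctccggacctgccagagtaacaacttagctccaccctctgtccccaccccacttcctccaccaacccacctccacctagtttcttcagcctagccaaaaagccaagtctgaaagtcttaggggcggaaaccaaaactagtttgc
Casp1 (chr9:5298267-5298566, plus strand): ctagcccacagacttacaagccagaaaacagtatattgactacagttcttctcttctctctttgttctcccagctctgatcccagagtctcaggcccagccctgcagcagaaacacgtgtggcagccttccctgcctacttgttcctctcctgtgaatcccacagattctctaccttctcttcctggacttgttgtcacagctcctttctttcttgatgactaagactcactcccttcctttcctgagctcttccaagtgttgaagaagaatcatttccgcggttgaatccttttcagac
Il18 (chr9:50554450-50554749, plus strand): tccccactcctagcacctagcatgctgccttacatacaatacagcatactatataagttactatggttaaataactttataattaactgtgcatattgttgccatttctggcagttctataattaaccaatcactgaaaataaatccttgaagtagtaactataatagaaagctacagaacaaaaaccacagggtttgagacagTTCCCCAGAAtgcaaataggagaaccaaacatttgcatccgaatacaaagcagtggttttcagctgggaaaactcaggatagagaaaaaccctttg

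The capitals in the Il18 promoter mark the match TTCCCCAGAA at -46 from its start site, which has the form TTCNNNNGAA named for STAT6 and found on either strand in 6.95% of 32851 promoters of the same length. None of the 4 windows held the GAS form TTCNNNGAA (8.3% of promoters), the IRF form GAAANNGAAA (3.44%) or the HNF4 form CAAAGNNCA (6.36%) on either strand. The 2 STAT forms differ by 1 base in spacing and can share sequence. The -46 counts from the RefSeq start site of Il18. The Il18 window ends at 50554749, before the start of the gene in GENCODE M21 at 50554827. These matches are letters in a window and say nothing of binding. Promoters of 5 of the 9 members matched in the reference, and those of Gsdmd, Gsdmc, Gsdmc2 and Gsdmc4 are named only.

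Nlrp6, the sensor (GRCm38, chromosome 7, 140920902 to 140929192, plus strand), had its villus high point at the base. From the first to the last of 5 equal ranked sets its mean over 6 libraries was 135, 81.6, 37.0, 12 and 3.24 CPM. Upper-villus against lower-villus enterocytes gave a log2 fold change of -4.17 (SE 0.217, adjusted p = 6.63e-07), and the ranges did not overlap, at 2.61 to 9.58 CPM above and 100.2 to 140.2 CPM below. The level in crypt progenitors was near that of the lower villus, with a lowest, median and highest library of 108, 127 and 153 CPM.

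Pycard (chromosome 7, 127989708 to 127993867, minus strand), the adaptor, was lower in each further set. Its 5 sets held 113, 29.8, 11.9, 4.84 and 2.62 CPM, and the upper-villus contrast was a log2 fold change of -4.31 (SE 0.0939, adjusted p = 3.84e-11). Below the villus it was far higher, at 889.7 to 1370 CPM with a median of 1084 CPM in crypt progenitors, against 27.5 to 38.4 CPM over all enterocytes. Every crypt progenitor library lay above every enterocyte library, and the paired contrast was a log2 fold change of 4.16 (SE 0.156, adjusted p = 5.06e-62).

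Casp1 and Il18 (chromosome 9, 5298517 to 5307265 and 50554827 to 50581840, both on the plus strand) also fell up the villus, and stood differently in the crypt. Casp1, the protease, went through 147, 115, 79.5, 43.6 and 18.3 CPM over the 5 sets, and upper-villus against lower-villus enterocytes gave -2.15 (log2, SE 0.0984, adjusted p = 2.79e-08). Il18, the cytokine, went through 243, 130, 65.1, 30.1 and 18.8 CPM, with -2.90 (log2, SE 0.0743, adjusted p = 9.50e-11). In crypt progenitors Il18 was 8.17 to 21.2 CPM, a median of 10.6% of its enterocyte level beside 4.65% for the enterocyte marker sum, and a log2 fold change of -3.87 against enterocytes (SE 0.236, adjusted p = 3.20e-36), while Casp1 was 108 to 138 CPM. Casp1 between these classes had no direction that held, at -0.24 (SE 0.158, adjusted p = 0.157) with TMM scaling and 0.70 (adjusted p = 2.06e-05) without it, over a range of adjusted p from 2.06e-05 to 0.895 in the alternatives.

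Gsdmd, the pore-forming target of caspase-1 (chromosome 15, 75862327 to 75867408, plus strand), did not fall up the villus. Its 5 sets held 255, 303, 312, 297 and 277 CPM. Upper-villus enterocytes were 0.39 higher on the log2 scale than lower-villus enterocytes (SE 0.0395, adjusted p = 4.62e-06), a call that ended without TMM scaling (0.06, adjusted p = 0.107, the highest adjusted p of its alternatives). In crypt progenitors it was 12.6 to 43.8 CPM against 265 to 303 CPM in enterocytes, with no overlap and a log2 fold change of -4.39 (SE 0.20, adjusted p = 9.74e-50). Of cells thinned to 2000 UMIs, 43.9% of enterocytes and 7.63% of crypt progenitors had a Gsdmd UMI, against 82.9% and 29.7% at full depth.

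**Figure D1:**
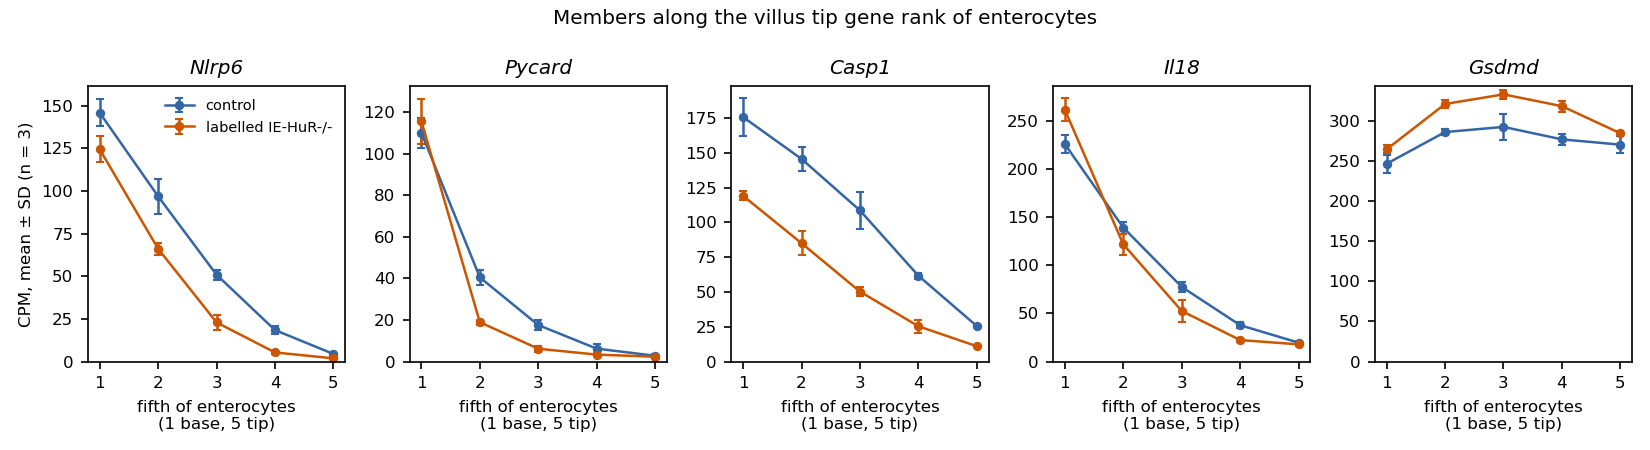
Level of 5 members (CPM, mean ± SD, n = 3 libraries per label) in 5 equal sets of enterocytes ranked by villus tip genes, 1 being the lowest in tip genes, with control in blue and the libraries labelled IE-HuR-/- in orange. Nlrp6, Pycard, Casp1 and Il18 run down from set 1 to set 5, and Gsdmd stays between 246 and 333 CPM in every set of both labels.

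Crypt progenitors held the adaptor at a high level beside little cytokine and little Gsdmd, and they also held the gasdermin C genes. Of the 9 members 8 were tested between crypt progenitors and enterocytes, 5 were higher and 2 lower, where 69.8% of all genes tested were called. Gsdmc2 and Gsdmc3, among the 5 higher, were at most 0.234 and 0.0233 CPM in enterocytes. They passed the low-count filter through crypt progenitors only, so that their direction was not free. The median log2 fold change of 2.26 for the members, against -0.28 over all genes tested, includes both. Without TMM scaling the median of all genes moved from -0.28 to 0.655, so that each fold between these classes depends on the scaling by about that much. Nlrp6 was 0.36 higher in crypt progenitors (SE 0.154, adjusted p = 0.0290), a call that was lost in 7 of 11 alternatives (adjusted p 1.51e-15 to 0.139), 4 of them with 1 library left out: control replicate 2 (0.26) or replicate 1, 2 or 3 of the libraries labelled IE-HuR-/- (0.29, 0.28 and 0.33).

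Gsdmc2, Gsdmc3 and Gsdmc4 UMIs came mostly from crypt progenitors and from epithelial cells low in enterocyte markers. The genes lie side by side on the minus strand of chromosome 15, Gsdmc at 63775968 to 63808759, Gsdmc2 at 63824346 to 63845177, Gsdmc3 at 63857724 to 63878558 and Gsdmc4 at 63891264 to 63912297. Over all barcodes there were 203 Gsdmc2, 57 Gsdmc3 and 551 Gsdmc4 UMIs, so that Gsdmc4 gave 67.9% of the 811. Gsdmc had 0 UMIs in every library, which allows at most 0.00699 CPM over all barcodes, by counting error alone. The 118 crypt progenitors held 0.466% of all UMIs but 21.7% of Gsdmc2, 33.3% of Gsdmc3 and 23.8% of Gsdmc4 UMIs.

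In crypt progenitors Gsdmc4 had 7, 21 and 54 UMIs in control replicates 1, 2 and 3 and 12, 28 and 9 in the libraries labelled IE-HuR-/-, which is 17.6 to 110 CPM with a median of 53.9 CPM. Gsdmc2 had 1, 11 and 17 UMIs under the control label and 4, 5 and 6 under the other, and Gsdmc3 had 1, 9 and 6 and 0, 1 and 2. In enterocytes the levels were 0.110 to 0.676 CPM for Gsdmc4, 0 to 0.234 CPM for Gsdmc2 and 0 to 0.0233 CPM for Gsdmc3. Every crypt progenitor library was above every enterocyte library for Gsdmc4 and Gsdmc2. The log2 fold change was 6.58 for Gsdmc4 (SE 0.357, adjusted p = 1.33e-22) and 6.83 for Gsdmc2 (SE 0.509). Gsdmc2 passed the low-count filter through crypt progenitors only, so its direction was not free and no adjusted p is given for it. Gsdmc3 rests on 19 UMIs in 9 crypt progenitors, at 0 to 28.1 CPM over libraries, and on 2 UMIs in enterocytes. It too passed the low-count filter through crypt progenitors only, so no fold is given for it.

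The UMIs lay in a part of the cells. Of 118 crypt progenitors, 27 had a UMI of Gsdmc2, Gsdmc3 or Gsdmc4, and 16 of these had UMIs of at least 2 of the genes. They held 194 UMIs, 51 of them in 1 cell. All 27 also had a Pycard UMI, against 78 of the 91 others (85.7%), but they were deeper, with a median of 29800 against 5724 UMIs per cell. Of cells thinned to 2000 UMIs, which kept 6251 of 6654 T or NK cells and every cell of the other classes named, 7.63% of crypt progenitors, 0.0633% of enterocytes and 0.016% of T or NK cells had a Gsdmc4 UMI, against 22.9%, 0.299% and 0.0601% at full depth. The T or NK share is what cells outside the epithelium held.

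Another set of epithelial cells also carried gasdermin C. These 305 cells had general epithelial markers but under 2% of their UMIs from enterocyte markers and passed no class gate, and they were set apart after the members' UMIs had been seen. They are not named as a cell type, and 78 of them had a crypt progenitor marker UMI. They held 0.838% of all UMIs and 45.3% of Gsdmc2, 40.4% of Gsdmc3 and 47.9% of Gsdmc4 UMIs. Gsdmc4 was 98.2, 74.8 and 79.3 CPM in control replicates 1, 2 and 3 and 59.6, 78.9 and 73.1 CPM in the libraries labelled IE-HuR-/-, with overlap between the labels. Pycard was 693 to 1177 CPM, Nlrp6 164 to 235 CPM, Casp1 176 to 240 CPM and Gsdmd 74.8 to 137 CPM in them. Il18 was 67.1 to 89.4 CPM under the control label and 112 to 164 CPM under the other, above its crypt progenitor level. A label contrast in these cells alone was not tested. Of the 84 cells with a gasdermin C UMI 79 had Pycard (94.0%), against 94 of the 221 others (42.5%), with median depths of 9500 and 5093 UMIs.

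**Figure D2:**
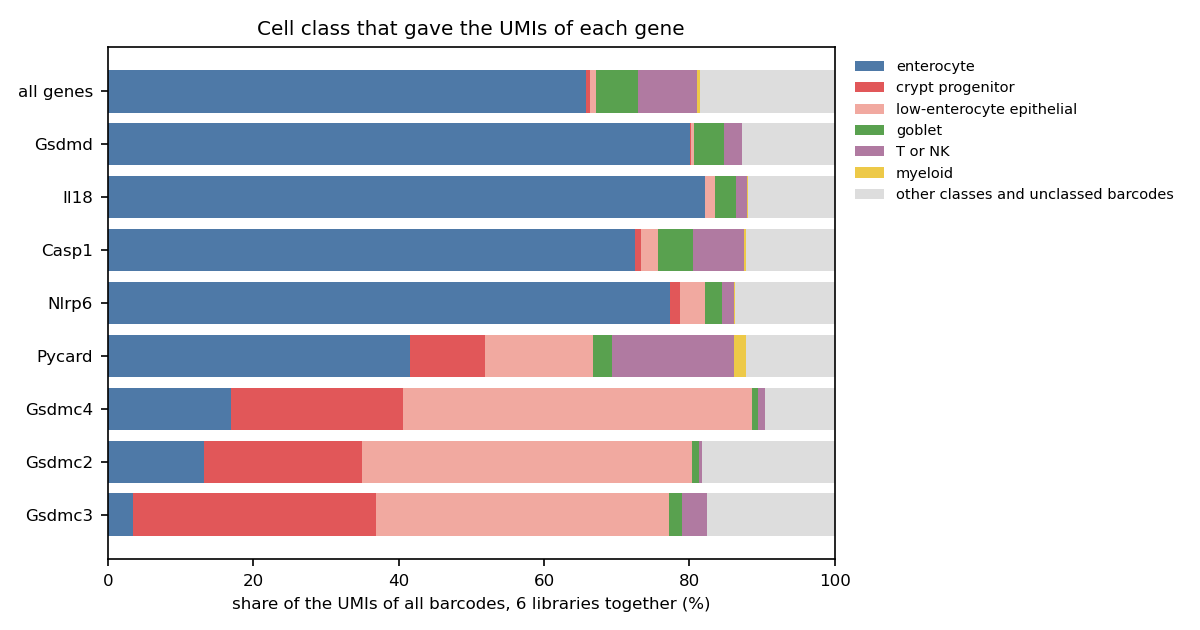
Share of the UMIs of each gene (%, 6 libraries pooled, all barcodes) that each cell class gave, with the share over all genes in the top bar. Crypt progenitors and low-enterocyte epithelial cells give most of the Gsdmc2, Gsdmc3 and Gsdmc4 UMIs, and enterocytes give 80.1% of Gsdmd and 41.6% of Pycard UMIs against 65.8% over all genes.

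The gasdermin C genes are near copies. Aligned transcripts were 96.9% identical between Gsdmc2 and Gsdmc3, 94.3% between Gsdmc2 and Gsdmc4 and 92.1% between Gsdmc3 and Gsdmc4, while Gsdmc was 85.7% to 87.9% identical to the others. Of all stretches of 90 bases, 31.7% of those in Gsdmc2, 33.2% in Gsdmc3, 23.2% in Gsdmc4 and 8.72% in Gsdmc occur unchanged in another family transcript. Reads from such stretches could be dropped or split by counting, so that the split of the 811 UMIs among the genes is uncertain. Il18 overlaps Tex12 by 4507 bases and Bco2 by 355 bases on the opposite strand, and Elavl1 overlaps Ccl25 by 204 bases likewise. Whether counting used strand is not given in the sources used here.

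Outside these classes the genes differed in where they were found. Pycard was 132 to 277 CPM in plasmacytoid dendritic cells and 93.2 to 116 CPM in T or NK cells. In B or plasma cells it was 18.6 to 167 CPM. Its order ran from crypt progenitors and low-enterocyte epithelial cells, whose ranges overlapped, to myeloid and plasmacytoid dendritic cells, whose ranges overlapped too. T or NK cells and then all enterocytes followed. The 16 Paneth cells, 1 to 4 per library, gave Pycard from 0 to 397 CPM and are too few to place. Il18 was 48.5 to 190 CPM in fibroblasts, over 114 UMIs, a range that overlapped that of all enterocytes. Casp1 was 54.7 to 68.6 CPM in T or NK cells, inside its enterocyte range. Gsdmd was 110 to 160 CPM in tuft cells and 63.2 to 160 CPM in enteroendocrine cells, which held 47.8% and 40.8% of the enterocyte marker level.

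Across 12 classes, the gene most like Gsdmc2 among 10635 genes was Gsdmc4 (Pearson r = 0.9956 of log levels, a description over classes from the same libraries), followed by Rbp7 (0.9906) and Gsdmc3 (0.9798). Gsdmc2 had a mean of 21.8 CPM in crypt progenitors and at most 1.17 CPM in any other of these classes, so that r rests mostly on crypt progenitors. Low-enterocyte epithelial cells were not among the 12. The nearest genes were Lad1 for Nlrp6 (0.9672), Prkra for Casp1 (0.9458), Gstm1 for Il18 (0.9393) and Plec for Gsdmd (0.9729).

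Goblet cells, in which NLRP6 is known for its part in mucus release, were not above enterocytes for any member called. Of the 6 members tested edgeR called none higher and 4 lower (3 by DESeq2), with 51.3% of all genes called. Nlrp6 was 11.8 to 24.7 CPM (median 16.0) in goblet cells and 40.9 to 62.2 CPM (median 53.4) in enterocytes, with no overlap and a log2 fold change of -1.45 (SE 0.0766, adjusted p = 4.54e-11). Il18 was lower at -1.08 (SE 0.0852, adjusted p = 2.34e-08), and Gsdmd at -0.57 (SE 0.0567, adjusted p = 2.04e-07). As a share of their enterocyte level in the same library, goblet cells held 30.4% to 40.0% of Nlrp6 under the control label and 27.6% to 31.7% under the other, where the enterocyte marker sum was 52.6% to 59.7% and 34.8% to 45.2%. Nlrp6 was below the marker share in all 6 libraries, and the part of enterocyte RNA in its goblet cell level was not tested. Il18 was below the marker share in the control libraries, at 34.7% to 38.5%, and above it in the libraries labelled IE-HuR-/-, at 46.6% to 51.8%. Over all libraries Gsdmd had a median of 61.6%, Pycard 70.0% and Casp1 77.4%, beside 48.9% for the marker sum.

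Casp1 (-0.22, SE 0.0748, adjusted p = 0.0193) was lower in goblet cells in the main fit, and the call ended with DESeq2 (adjusted p = 0.0572) and without control replicate 1, 2 or 3 (-0.20, -0.18 and -0.19), over adjusted p from 2.76e-04 to 0.0879 in all alternatives. Pycard did not pass (-0.33, SE 0.150, adjusted p = 0.0933), and did so in 5 of 11 alternatives.

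Pycard was the member called higher in myeloid cells than in enterocytes. It was 354, 234 and 156 CPM in myeloid cells of control replicates 1, 2 and 3 and 207, 411 and 137 CPM in those labelled IE-HuR-/-, all above the 27.5 to 38.4 CPM of enterocytes, and the contrast was 1.97 (log2, SE 0.242, adjusted p = 3.44e-08). Of the 6 members tested between these classes 1 was higher and 4 lower, with 61.5% of all genes called and a shift of the median of all genes from -0.30 to 0.605 without TMM scaling. Gsdmd was 37.2 to 93.5 CPM in myeloid cells and 3.09 lower than in enterocytes on the log2 scale (-3.09, SE 0.252, adjusted p = 1.86e-12).

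Nlrp6 had 13.1, 55.2 and 0 CPM in myeloid cells under the control label and 0, 3.77 and 4.14 CPM under the other, with a median of 8.93% of its enterocyte level. Control replicate 2, the highest library for Nlrp6 and for Il18 (149 CPM), was also the library whose myeloid cells held 36.8% of the enterocyte marker level, and the part of that RNA in these values was not tested. With this library left out and in every other alternative, Nlrp6 (-2.94, adjusted p = 6.68e-04, range of adjusted p 5.22e-23 to 0.00298) and Il18 (-2.07, adjusted p = 3.47e-04, range 2.67e-22 to 0.00751) were lower in myeloid cells. Casp1 turned with the scaling, from -0.67 (adjusted p = 0.00896) to 0.24 without TMM scaling (adjusted p = 0.353, range 0.00383 to 0.353). The call also ended with DESeq2 (-0.41), with no filter on low counts (-0.48) and without control replicate 1 (-0.58), and its CPM ranges of 62.1 to 120 in myeloid cells and 54.2 to 104 in enterocytes overlapped. No myeloid cell of 232 had a UMI of Gsdmc2, Gsdmc3 or Gsdmc4, which allows a share of up to 1.29% of cells with a UMI.

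**Figure D3:**
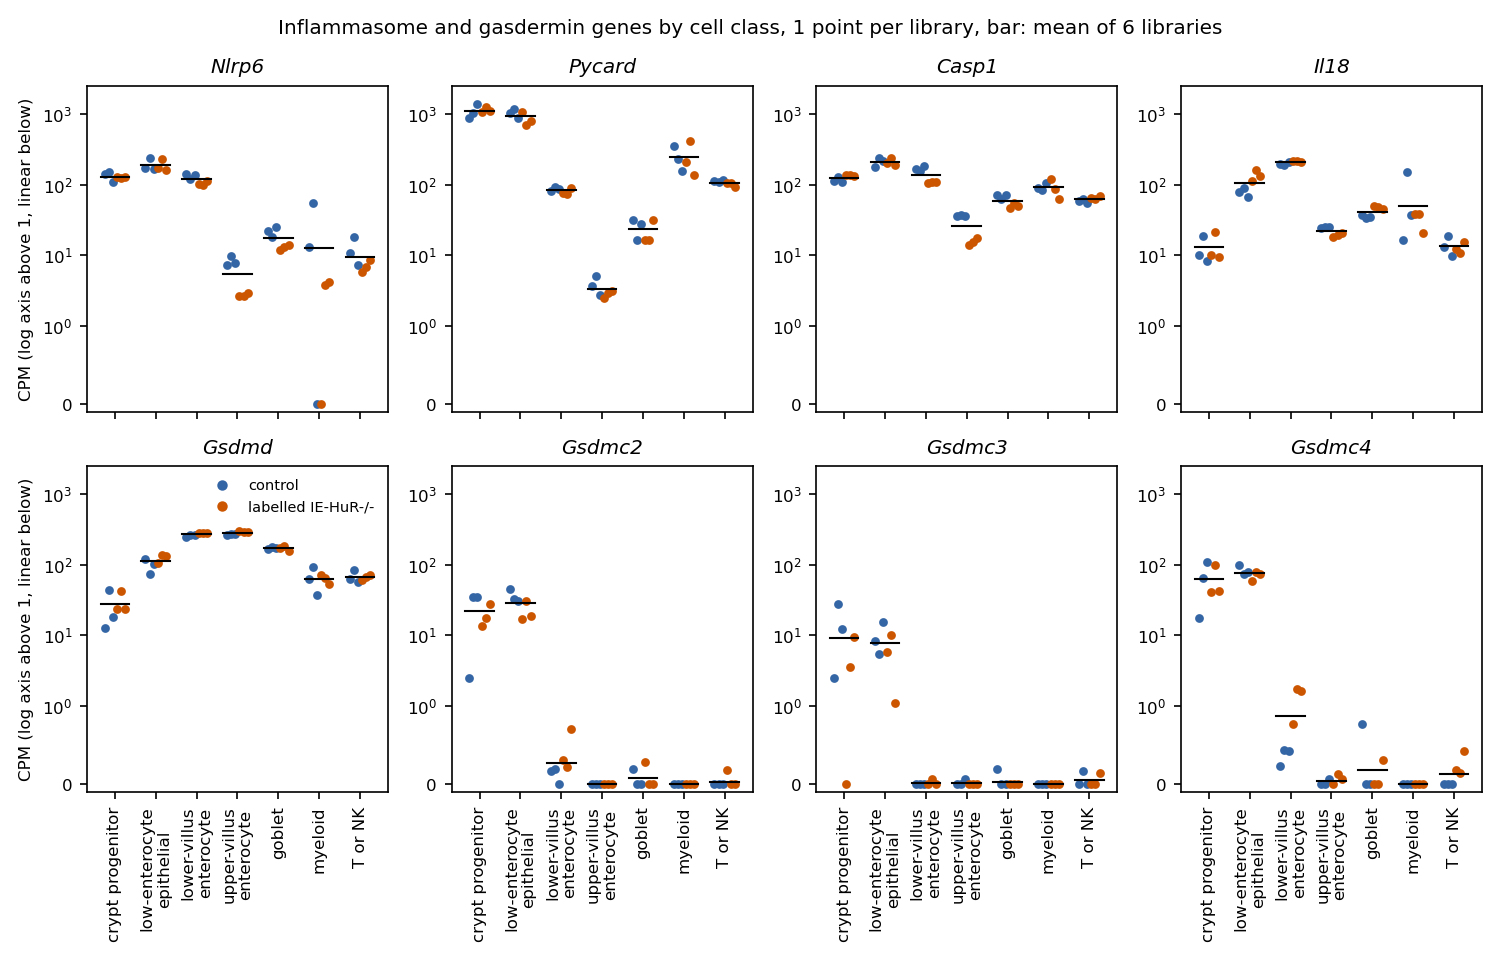
Level of 8 members in 7 cell classes (CPM, on an axis that is logarithmic above 1 and linear below), with 1 point per library and a bar at the mean of 6 libraries, control in blue and labelled IE-HuR-/- in orange. Pycard is high in crypt progenitors, at 889.7 to 1370 CPM, and in low-enterocyte epithelial cells, at 692.6 to 1177 CPM, with overlap. Gsdmc2, Gsdmc3 and Gsdmc4 stay at or below 1.71 CPM in the classes drawn other than crypt progenitors and low-enterocyte epithelial cells.

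Under the IE-HuR-/- label, enterocytes held less of the sensor and the protease and more of the pore protein. Of the 6 members tested between labels in enterocytes 3 were higher and 2 lower, in a contrast in which 61.2% of all genes tested were called. Gsdmc4, among the 3 higher, passed the low-count filter only through the libraries labelled IE-HuR-/-, so that its direction was not free. The median log2 fold change was 0.0545 for the members, Gsdmc4 included, and -0.0168 for all genes. Without TMM scaling the median of all genes moved to -0.205 and the split of called genes from 3758 higher and 3797 lower to 1946 higher and 6254 lower, so folds near 0.2 in size depend on the scaling. Bulk sums per class cannot tell fewer cells of a kind within the class from less RNA per cell.

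Casp1 changed most in enterocytes among the members with more than a few UMIs. It was 101, 94.8 and 104 CPM in control replicates 1, 2 and 3 and 54.2, 58.0 and 59.5 CPM in the libraries labelled IE-HuR-/-. All 3 were below all control libraries, and Casp1 fell by 0.61 on the log2 scale (SE 0.0445, adjusted p = 2.53e-13), a change of -34.6%. The direction and call held in all 17 alternatives, from -0.99 to -0.39.

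Nlrp6 was 62.2, 59 and 61.7 CPM under the control label and 42.8, 40.9 and 47.8 CPM under the other. The groups did not overlap, and Nlrp6 fell by 0.29 on the log2 scale (SE 0.0480, adjusted p = 5.98e-06), a change of -18.0%. Gsdmd was 265, 275 and 279 CPM against 303, 302 and 301 CPM, again without overlap and in the other direction. Its log2 fold change of 0.34 (SE 0.0400, adjusted p = 1.45e-08) was 26.1% and stayed called in all 17 alternatives, down to 0.14. The percent changes of Casp1, Nlrp6 and Gsdmd are those after TMM scaling. The CPM listed are not so scaled and give a smaller rise for Gsdmd and larger falls for Casp1 and Nlrp6.

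Il18 and Pycard did not have a direction that held. Il18 was 95.8, 96.2 and 99.3 CPM under the control label and 94.4, 93.9 and 95.8 CPM under the other, almost level, and its log2 fold change of 0.15 (SE 0.0399, adjusted p = 0.00135) turned to -0.04 without TMM scaling (adjusted p = 0.455, range of its alternatives 1.78e-10 to 0.455). Pycard was 32.2, 38.4 and 34.1 CPM against 29.1, 27.5 and 32.7 CPM, with overlap, and its contrast was -0.04 (SE 0.0742, adjusted p = 0.625). It was called lower without TMM scaling (-0.23, adjusted p = 0.0119) and with stricter gates (-0.33, adjusted p = 0.00932), and higher in lower-villus cells cut by 1 limit (0.41, adjusted p = 2.17e-06), with adjusted p up to 0.960 among its alternatives.

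**Figure D4:**
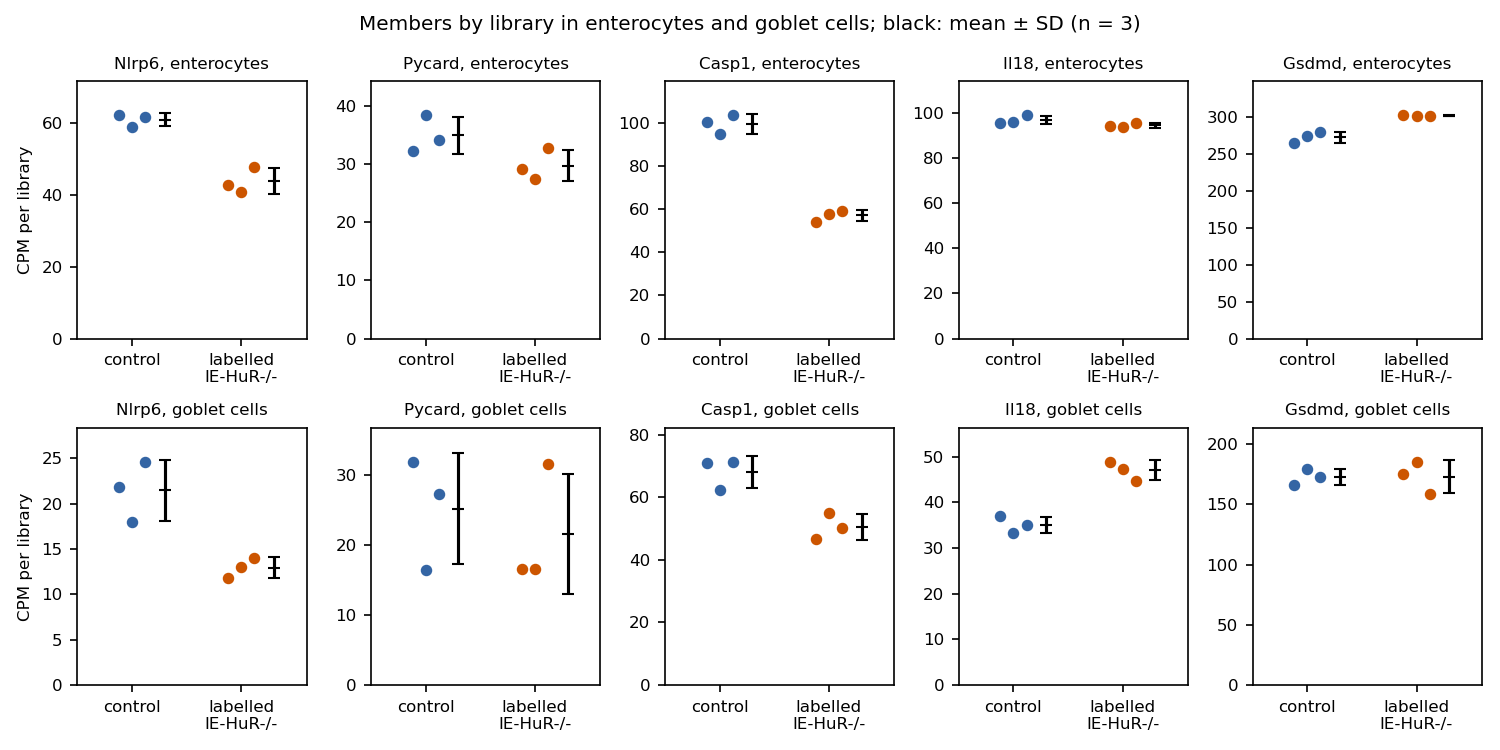
Level of 5 members in each library (CPM) in enterocytes and goblet cells, with the mean ± SD (n = 3) in black beside the points. In enterocytes the points of the 2 labels are apart for Nlrp6, Casp1 and Gsdmd, and in goblet cells for Nlrp6, Casp1 and Il18, where Casp1 was not called. Of all genes tested 61.2% were called between labels in enterocytes and 26.7% in goblet cells. The share of all genes with points apart was not counted.

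Label contrasts were also taken within parts of the villus, because villus tip genes moved with the label. They summed to 7685 to 8576 CPM in control enterocytes and 10330 to 10990 CPM in those labelled IE-HuR-/-, so that a set of equal size per library held cells with more tip gene RNA under the latter label. In the upper of 3 equal sets Casp1 was -0.99 (SE 0.0740, adjusted p = 1.83e-13) and Nlrp6 -1.35 (SE 0.151, adjusted p = 2.23e-09) on the log2 scale. In the lower set they were -0.52 (SE 0.0538, adjusted p = 2.55e-10) and -0.21 (SE 0.0550, adjusted p = 0.00159).

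When the same limits on tip gene share were used for all libraries, which was chosen after seeing the data, Casp1 stayed lower in lower-villus cells (-0.39, adjusted p = 2.62e-08) and in upper-villus cells (-0.67, adjusted p = 1.60e-08). Nlrp6 did not differ detectably in lower-villus cells (0.02, SE 0.0529, adjusted p = 0.847) and was lower in upper-villus cells (-0.63, SE 0.165, adjusted p = 0.00198), with adjusted p from 1.32e-10 to 0.847 over its alternatives. Il18 was higher in lower-villus cells so cut (0.46, adjusted p = 1.78e-10) and not called in upper-villus cells (0.07, adjusted p = 0.424). Gsdmd was higher in both (0.14, adjusted p = 0.0152, and 0.33, adjusted p = 2.37e-07). Whether the contrast differed between lower and upper villus was not tested.

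**Figure D5:**
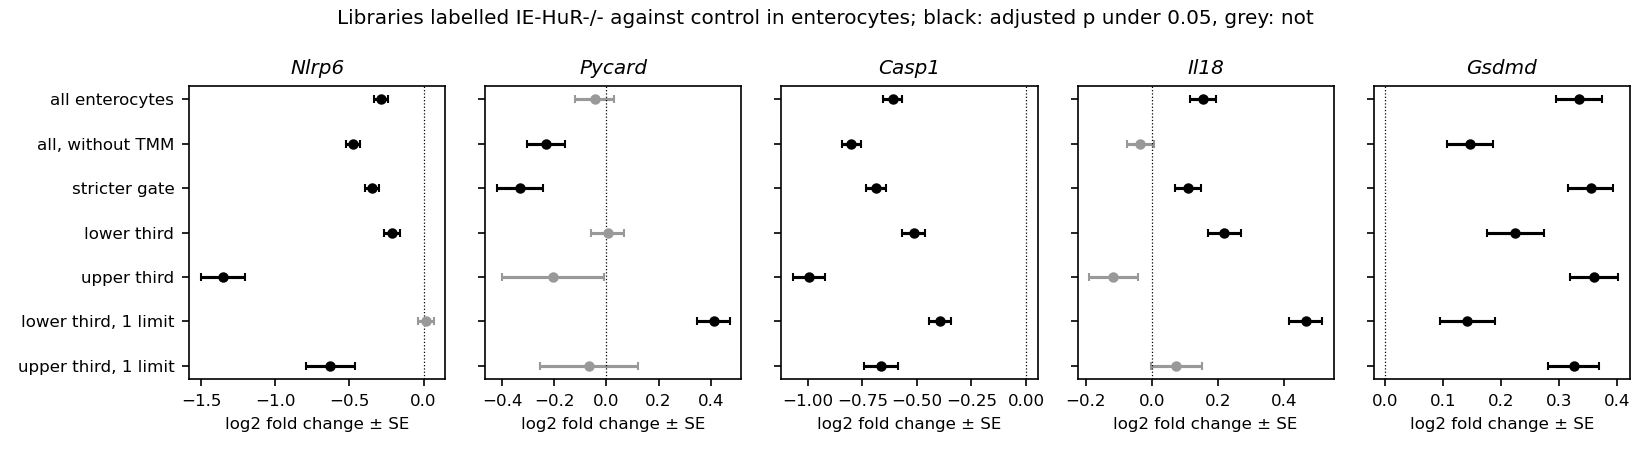
Log2 fold change ± SE of the libraries labelled IE-HuR-/- against control in enterocytes, over all cells and within parts of the villus, with black points at an adjusted p under 0.05. Casp1 lies below 0 and Gsdmd above 0 in every row, while Nlrp6, Pycard and Il18 each have a row on the other side of 0.

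Markers of other cells also moved with the label in enterocytes. B or plasma cell markers summed to 1.2 to 3.49 CPM under the control label and 14.5 to 24.7 CPM under the other, T or NK markers to 34.1 to 63.0 and 62.3 to 76.8 CPM, and myeloid markers to 9.1 to 11.8 and 11.3 to 14 CPM. Their part in the member contrasts was not tested. Casp1 in T or NK cells was at 52.7% to 66.0% of its enterocyte level under the control label and 107% to 121% under the other.

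Gsdmc4 in enterocytes rested on 6, 10 and 7 UMIs in control replicates 1, 2 and 3 and 15, 29 and 26 UMIs in the libraries labelled IE-HuR-/-, with no overlap. The log2 fold change was 2.13 (SE 0.348), and 1.95 to 2.53 in the 14 alternatives that gave a value. Levels were 0.110 to 0.164 CPM under the control label and 0.398 to 0.676 CPM under the other. Gsdmc4 passed the low-count filter only through the libraries labelled IE-HuR-/-, so its direction was not free and no adjusted p is given. The Gsdmc4 UMIs of enterocytes were from lower-villus cells for 76 of 93 and from upper-villus cells for 4. The low-enterocyte epithelial cells, which carried Gsdmc4 at more than 59 CPM in every library, numbered 26, 30 and 20 in the control libraries and 68, 79 and 82 in the others, and held 24, 41 and 26 against 52, 54 and 67 Gsdmc4 UMIs. The part of their RNA in the enterocyte counts was not tested.

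In goblet cells Il18 and Nlrp6 were called between labels, in a contrast in which 26.7% of all genes tested were called. Il18 was 36.9, 33.4 and 35 CPM in control replicates 1, 2 and 3 and 48.9, 47.4 and 44.6 CPM in the libraries labelled IE-HuR-/-. All 3 were above the control libraries, with a log2 fold change of 0.61 (SE 0.113, adjusted p = 3.85e-04) called in all 13 alternatives. Nlrp6 was 21.8, 18.0 and 24.7 CPM against 11.8, 13.0 and 14.1 CPM, without overlap, with -0.54 (SE 0.167, adjusted p = 0.0204).

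The Nlrp6 call in goblet cells ended with DESeq2 (adjusted p = 0.0902, the highest of its alternatives, the lowest being 0.00252) and without control replicate 1 or 3 (-0.54 and -0.45) or replicate 1 or 2 of the libraries labelled IE-HuR-/- (-0.47 and -0.53). Enterocyte markers in goblet cells summed to 41570 to 43680 CPM under the control label and 27450 to 36500 CPM under the other, in the direction of Nlrp6 and against that of Il18, and their part was not tested. Casp1 was 70.9, 62.3 and 71.5 CPM against 46.7, 54.9 and 50.1 CPM, without overlap in CPM, and did not pass (-0.25, SE 0.107, adjusted p = 0.0932). It was called without TMM scaling alone (-0.43, adjusted p = 0.00482, against 0.0711 to 0.279 with a library left out). Gsdmd (0.19, adjusted p = 0.157) and Pycard (-0.03, adjusted p = 0.959) did not pass, and both overlapped between labels.

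The label contrast of Casp1 and of Il18 differed between goblet cells and enterocytes when the difference itself was tested, with 4.09% of all genes called. The difference was 0.41 for Casp1 (log2, SE 0.108, adjusted p = 0.0280), with the smaller fall in goblet cells, and 0.50 for Il18 (SE 0.116, adjusted p = 0.0116), with the larger rise there. Leaving out any 1 of the 6 libraries ended the Casp1 call (0.35 to 0.43, adjusted p 0.0600 to 0.157), and leaving out control replicate 1, 2 or 3 or replicate 1 labelled IE-HuR-/- ended that of Il18 (0.49, 0.49, 0.41 and 0.45). Nlrp6 (-0.21, adjusted p = 0.589), Gsdmd (-0.11, adjusted p = 0.684) and Pycard (0.04, adjusted p = 0.980) were not called.

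In crypt progenitors none of the 4 members tested was called between labels, with 0.375% of all genes called, and none had an unadjusted p under 0.05. DESeq2 called none of them either. Pycard was 890, 1050 and 1370 CPM in control replicates 1, 2 and 3 and 1059, 1247 and 1109 CPM in the libraries labelled IE-HuR-/-, with overlap and a log2 fold change of -0.04 (SE 0.197, adjusted p = 0.984). Gsdmc4 (-0.19, SE 0.635, adjusted p = 0.981) went from -0.70 to 0.50 with single libraries left out, so that at 7 to 54 UMIs per library no direction could be given. Nlrp6 was 141, 153 and 108 CPM against 128, 124 and 126 CPM (-0.17, SE 0.252, adjusted p = 0.957). Casp1 was 113, 128 and 108 CPM against 138, 138 and 131 CPM, without overlap in CPM, and did not pass (0.13, SE 0.250, adjusted p = 0.975).

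In myeloid cells none of the 3 members tested was called either, with 0.17% of all genes called, none at an unadjusted p under 0.05 and none by DESeq2. Pycard (0.02, SE 0.452, adjusted p = 0.998), Casp1 (-0.04, SE 0.338, adjusted p = 0.987) and Gsdmd (-0.10, SE 0.411, adjusted p = 0.972) overlapped between labels. For the difference of the contrast between myeloid cells and enterocytes, 0.431% of all genes were called. None of the 6 members tested was called by edgeR or DESeq2, and 1 of these, Gsdmc4, had 0 UMIs in myeloid cells. Nlrp6, the 1 member with an unadjusted p under 0.05, had 2 UMIs in myeloid cells labelled IE-HuR-/- and 17 in control. That is too few for a fitted value, so none is given.

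Among 48 other inflammasome and pyroptosis genes, enterocytes of the libraries labelled IE-HuR-/- held more of most that were called. The list was chosen with earlier results of these data known. Of 36 tested 21 were higher and 8 lower, where 30.5% of all genes were called higher and 30.8% lower, with a median log2 fold change of 0.316 against -0.0168 over all genes. Among called genes with a mean of at least 10 CPM under either label the largest change was that of Il18bp, the secreted decoy that binds interleukin-18, at 18.9 against 6.38 CPM and 1.76 (log2, SE 0.0656, adjusted p = 9.68e-21). Ripk3 (1.24) and Zbp1 (1.03), of the necroptosis pathway, Txnip (1.09), Casp8 (0.70), a caspase that can cut gasdermins, and the interferon factor Irf1 (0.67) were also higher.

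In goblet cells 14 of 30 genes of that list were higher and 1 lower, where 14.8% of all genes were called higher and 11.8% lower. Gbp2, an interferon-induced GTPase, was at 88.1 against 14.2 CPM (log2 fold change 2.86, SE 0.467, adjusted p = 0.0133), and Il18bp at 31.5 against 7.96 CPM (2.17, SE 0.188, adjusted p = 3.66e-08). In crypt progenitors edgeR called none of 11 (1 at an unadjusted p under 0.05, and none by DESeq2), with 0.375% of all genes called. In myeloid cells 1 of 21 was called, with 0.17% of all genes called. It was Il1rn, the interleukin-1 receptor antagonist, at 105 against 16.4 CPM (2.76, SE 0.427). At that control level it passed the low-count filter by way of the libraries labelled IE-HuR-/-. Its direction was therefore not free, and no adjusted p is given.

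Between classes, 14 of 41 tested genes of the list were higher and 16 lower in myeloid cells than in enterocytes, with a median of -0.286 against -0.30 over all genes, of which 26.9% were called higher and 34.6% lower, so that the count was near the background. Il1b was 344 CPM in myeloid cells and 0.0472 CPM in enterocytes, and Nlrp3 22.8 and 0.00779 CPM. Both are among the 14 higher and passed the low-count filter through myeloid cells only, so that their direction was not free. In crypt progenitors 4 of 34 were higher and 24 lower (30.5% and 39.3% of all genes), with a median of -2.05 against -0.28, among them the epithelial sensor Nlrp9b at 2.31 against 41.0 CPM and Zbp1 at 4.85 against 51.3 CPM. Along the villus 20 of 34 were higher in upper-villus cells and 7 lower (36.3% and 41.1% of all genes), with a median of 0.447. In that contrast Nlrp6, Pycard, Casp1 and Il18 were at -4.17, -4.31, -2.15 and -2.90 and Gsdmd at 0.39. Gsdme, another pore-forming gasdermin, was 59.5 CPM in the upper and 22.5 CPM in the lower villus, and Nlrp9b 62.6 and 21.1 CPM. In goblet cells against enterocytes 20 of 37 were higher and 6 lower (25.1% and 26.2% of all genes), among them Gbp2 at 51.1 and 2.24 CPM.

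Of 8 genes of the type 2 cytokine pathway, 3 were tested in enterocytes and all were higher under the IE-HuR-/- label: the receptor chains Il4ra (0.58, 33.9 against 25.9 CPM) and Il13ra1 (0.30, 153 against 141 CPM), and the factor Stat6 (0.21, and almost level before TMM scaling at 62.8 against 62.1 CPM). In that contrast 61.2% of all genes were called. All 3 were higher in upper-villus than in lower-villus cells (77.4% of all genes called) and lower in crypt progenitors than in enterocytes (69.8%), where Il13ra1 was 16.5 against 147 CPM. Between labels 1 of 3 was higher in goblet cells, Il4ra (0.42, adjusted p = 0.0375), with 26.7% of all genes called. The 1 gene tested in crypt progenitors and the 3 tested in myeloid cells were not called by edgeR or DESeq2, with 0 and 1 at an unadjusted p under 0.05. Goblet cells against enterocytes gave 1 higher and 2 lower of 4 (51.3% of all genes called), and myeloid cells 2 lower of 3 (61.5%).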

How the data were processed

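For each of the 6 libraries the authors deposited a matrix of UMI counts by gene and barcode, which is not normalized and whose barcodes all hold 500 UMIs or more. Cell Ranger 6.1.2 is given in the matrix headers, mm10, Cell Ranger and Seurat in the submitters' processing notes. The labels and the methods disagree on the kit (5′ or 3′ ends), on the Cell Ranger version and reference, and on feeding or fasting for 24 hours before the tissue was taken. Positions are from GENCODE M21 on GRCm38, which is the genome of mm10.

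Barcodes with at least 200 genes were kept (60431). Classes were gated on marker UMIs. An enterocyte needed 8 of 13 markers, 2% of UMIs from them and 2000 UMIs, a goblet cell 4 markers and 5%, a crypt progenitor 3 and 0.1%, and a myeloid cell 3 and 0.2% with 1000 UMIs. No doublet caller was run, and 36 cells that passed the gates of at least 2 classes were left out. Counts were summed per library and class and compared in R 4.3.3 by the robust quasi-likelihood F-test of edgeR 4.0.16 on TMM-scaled libraries, after filterByExpr had removed genes of low count (10 per library, 15 in total), and adjusted p under 0.05 by Benjamini-Hochberg over all genes tested was called. Class contrasts had the library as a block. SE is the log2 fold change over the square root of F. DESeq2 1.42.0 was an alternative. Fits were tested on simulated data. The library, 1 mouse by the methods of the study, is the replicate, and cells are not.

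Named were all 9 members and Elavl1, and of each list the called genes of largest change with a mean of at least 10 CPM in either arm. Members, lists and tests were chosen with earlier results of these data known. Other alternatives were no TMM scaling, no low-count filter, a cell filter (500 genes or more, mitochondrial UMIs no higher than 25%), stricter gates, thinned counts, parts of the villus, the replicate block and each library left out. Limits on tip gene share shared by all libraries (0.324% and 0.766%) and the sum of crypt progenitors with low-enterocyte epithelial cells were added after the data were seen. Floors of 3 counts cover counting error only.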

Additional observations from a re-analysis of the deposited data

Results flagged for a closer look

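The label contrast of 2 members differed between goblet cells and enterocytes by a test of the difference itself. For Casp1 the difference was 0.41 on the log2 scale (SE 0.108, edgeR adjusted p = 0.0280), from -0.61 in enterocytes and -0.25 in goblet cells, where all 3 libraries labelled IE-HuR-/- were below all control libraries in both classes. The call held in 2 of 11 alternatives (0.34 to 0.43, adjusted p 0.0214 to 0.157). For Il18 the difference was 0.50 (SE 0.116, adjusted p = 0.0116), from 0.15 and 0.61, and it held in 7 of 11 alternatives (0.41 to 0.70, adjusted p 8.13e-04 to 0.0906). Enterocyte markers in goblet cells were lower under the IE-HuR-/- label (27450 to 36500 against 41570 to 43680 CPM), and their part in both differences was not tested.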

How the results depend on the processing

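Of 698 alternative values for 57 results, 579 were the same as the main fit. For a member this means the same direction and side of the threshold. For a number of genes called it means a total near that of the main fit, whatever its split into higher and lower. The number of genes called between labels in enterocytes was 7555, and 4682 in the lower-villus cells and 4433 with 1 limit, which hold fewer cells. In crypt progenitors 16 became 8 with DESeq2, 34 with no filter, 3 with stricter gates, 29 with the replicate block, 168 with low-enterocyte cells added and 4 to 32 with a library left out (32 and 28 without control replicates 1 and 2, and 10, 6 and 4 without replicates 1, 2 and 3 labelled IE-HuR-/-). In myeloid cells 6 became 25 with DESeq2, 12 without TMM, 151 with no filter, 18 with the block, 2 when thinned and 1 to 32 with a library left out (32 without control replicate 2, and 1 to 3 without each other). The difference between goblet cells and enterocytes went from 505 to 319 (DESeq2), 840 (no filter), 1156 (stricter gates) and 245 to 581 (a library left out, with 246 and 252 without control replicates 1 and 2 and 245 without replicate 3 labelled IE-HuR-/-). That of myeloid cells went from 56 to 35 (DESeq2), 90 (no TMM) and 22 to 117 (95 and 117 without control replicates 1 and 2, 22 and 36 without replicates 1 and 3 labelled IE-HuR-/-). The causes were not tested.

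Between labels in enterocytes the log2 fold change turned for Il18 without TMM (-0.035) and in upper-villus cells (-0.12), for Pycard in lower-villus cells (0.0050, and 0.41 with 1 limit) and for Nlrp6 there with 1 limit (0.015). It turned without TMM for Pycard in crypt progenitors (0.036) and myeloid cells (-0.018), for Casp1 between crypt progenitors (0.70) or myeloid cells (0.24) and enterocytes, and for Pycard in the goblet cell difference (-0.0010, and -0.030 with no filter). Stricter gates turned Pycard in goblet cells (0.011), crypt progenitors (0.032) and myeloid cells (-0.11). Nlrp6 in crypt progenitors turned when thinned (0.17) or summed with low-enterocyte cells (0.14), and Casp1 in myeloid cells with no filter (0.042) or a stricter cell filter (0.022). With a library left out the values spanned 0 between labels for Pycard in enterocytes (-0.11 to 0.022), goblet cells (-0.43 to 0.18), crypt progenitors (-0.15 to 0.12) and myeloid cells (-0.53 to 0.34), for Gsdmc4 in crypt progenitors (-0.70 to 0.50), for Gsdmd (-0.35 to 0.33) and Casp1 (-0.28 to 0.18) in myeloid cells, for Gsdmc4 between goblet cells and enterocytes (-2.57 to 0.036) and for Pycard in the goblet cell difference (-0.27 to 0.27).

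Without TMM the split of calls into higher and lower moved from 1327 and 1061 to 734 and 2182 between labels in goblet cells, from 3102 and 3236 to 2362 and 4717 for goblet cells, from 3836 and 4952 to 5843 and 2811 for crypt progenitors and from 3495 and 4496 to 5341 and 2427 for myeloid cells against enterocytes, and from 4191 and 4749 to 2826 and 6364 along the villus. It moved from 5 and 11 to 6 and 6 in crypt progenitors between labels, from 6 and 0 to 11 and 1 in myeloid cells, and from 319 and 186 to 256 and 230 for the goblet cell difference.

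Same-numbered libraries of the 2 labels correlated at -0.124 to 0.0825 in their deviations. In myeloid cells the same-numbered pairs were at 0.0669, 0.0825 and 0.0581, above the other pairs at -0.102 to 0.0384. Whether the numbers pair the mice cannot be told from so few libraries. With the replicate block, 17 of 18 member results kept call and direction, and Pycard in myeloid cells was -0.022. Crypt progenitors and myeloid cells summed to 2000889 and 1366118 UMIs, against 282425942 in enterocytes, and small changes in them could not be detected at this depth.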
